A study of Mus musculus with 32 samples.

Results

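The genes that build cholesterol and fatty acids were followed in the striatum of mice that model Huntington disease. They number 34 of the 55415 features in the deposited count files. They were chosen by name for their place in the pathway, with earlier results of these data known. They are 19 enzymes of sterol synthesis, 6 genes of the SREBP pathway that regulates them and 9 enzymes of fatty acid synthesis. Of these, 30 had enough counts to enter the test, among 10679 genes tested in all. With edgeR none of the 30 passed the test in any comparison, while DESeq2 called Pmvk in 1 pairwise comparison and Fads1 in another and over the 4 groups. Most tested sterol enzymes and most fatty acid enzymes had values below 0 in mice given AON12.1 relative to each of the other groups. Of all genes tested, between 48.2% and 50% did. Median log2 fold changes were between -0.18 and -0.14 for the sterol enzymes and between -0.10 and -0.02 for the fatty acid enzymes. Among the animals numbered from 18, with 2 AON12.1 libraries, most fatty acid enzymes lay above 0 against scrambled and against WT. These comparisons share the AON12.1 libraries, and the lists were not tested.

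The study measured polyadenylated RNA from striatum in 32 mice, 8 in each of 4 groups. YAC128 mice bear the human huntingtin gene with a lengthened CAG repeat on a yeast artificial chromosome, here on a B6 background, and their wild-type (WT) littermates lack it. AON12.1 is an antisense oligonucleotide that the series title directs at the caspase-6 cleavage site of HTT. The groups were YAC128 mice given AON12.1, YAC128 mice given a scrambled oligonucleotide, YAC128 mice given artificial cerebrospinal fluid (aCSF) and WT mice given aCSF, all through a cannula in the lateral ventricle. Oligonucleotide doses were 500 µg in 10 µL, begun near 6 months of age and repeated after 2 and 4 weeks, and striatum was taken at 12 months. All 4 groups, WT included, had the surgery and the carrier fluid, no WT group received an oligonucleotide, and the transgene stays present in every YAC128 group.

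Cholesterol in the brain is made locally, since plasma lipoproteins do not cross the blood-brain barrier to any large extent, and much of it is used for myelin. Acetyl-CoA is turned into mevalonate, then into squalene, then by ring closure into lanosterol and by a chain of reductions and demethylations into cholesterol. The transcription factors SREBP1 and SREBP2 are held in the endoplasmic reticulum by SCAP and the INSIG proteins when sterols are plentiful; when sterols fall they travel to the Golgi, are cleaved, and switch on sterol and fatty acid genes together with the CCAAT-binding factor NF-Y and with SP1.

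The promoters of 3 sterol enzymes are shown: Hmgcs1 at the entry of the branch, Pmvk at an early step and Cyp51 after ring closure. In this branch 13, 11 and 13 of 15 tested enzymes had values below 0 for AON12.1 against scrambled, YAC128 aCSF and WT aCSF. Of all genes 48.2%, 50% and 48.4% did, and the comparisons share the AON12.1 libraries. The list was not tested, nor was the part of promoter motifs in these values. Each promoter is a RefSeq window of 250 bases before and 50 bases after the start of transcription in GRCm38.p6. It is written 5′ to 3′ on the strand of the gene. Capitals mark the CCAAT box (CCAAT, or ATTGG where it lies on the other strand) and the sterol regulatory element searched as TCACNCCAC on both strands, and the 2 motifs did not overlap in these windows. The windows lie at chr13:119690101-119690400 on the plus strand for Hmgcs1, at chr3:89454291-89454590 on the plus strand for Pmvk and at chr5:4104648-4104947 on the minus strand for Cyp51.
Hmgcs1: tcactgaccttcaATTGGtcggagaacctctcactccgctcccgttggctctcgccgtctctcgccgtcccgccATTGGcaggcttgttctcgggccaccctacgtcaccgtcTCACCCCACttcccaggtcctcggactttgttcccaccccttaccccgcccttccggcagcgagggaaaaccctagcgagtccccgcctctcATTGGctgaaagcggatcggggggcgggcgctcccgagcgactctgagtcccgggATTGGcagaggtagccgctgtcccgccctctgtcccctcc
Pmvk: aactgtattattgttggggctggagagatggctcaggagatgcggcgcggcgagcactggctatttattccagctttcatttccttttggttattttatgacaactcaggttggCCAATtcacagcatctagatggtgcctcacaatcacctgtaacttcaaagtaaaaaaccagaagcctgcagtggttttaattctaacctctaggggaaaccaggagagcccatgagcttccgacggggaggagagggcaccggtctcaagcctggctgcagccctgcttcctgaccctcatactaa
Cyp51: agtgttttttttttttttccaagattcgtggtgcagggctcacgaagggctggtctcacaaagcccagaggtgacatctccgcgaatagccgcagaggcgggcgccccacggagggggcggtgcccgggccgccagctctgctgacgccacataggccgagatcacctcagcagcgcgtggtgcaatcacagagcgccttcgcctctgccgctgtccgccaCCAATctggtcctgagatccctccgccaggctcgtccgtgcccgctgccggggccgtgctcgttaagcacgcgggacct
The Hmgcs1 window held 4 CCAAT boxes and 1 sterol regulatory element, and each of the other windows held 1 CCAAT box. RefSeq lists a second start for Pmvk, whose window held neither motif. Windows were found for 27 of the 34 genes, 35 windows in all, and Fdft1, Stard4, Fads1, Scd1, Scd2, Fdps and Sqle were without one. A CCAAT box lay in 78.95% of the 19 windows of sterol enzymes, in 50% of the 10 windows of the SREBP pathway and in 50% of the 6 windows of fatty acid enzymes, against 37.41% of all 32851 promoter windows. The GC box GGGCGG, a letter match for the SP1 site, lay in 84.21% of the sterol windows, 80% of the SREBP pathway windows and 50% of the fatty acid windows, against 35.66% of all. The TCACNCCAC letters lay in 1 of the 35 windows, that of Hmgcs1, and in 1.242% of all. A match describes letters in a window and is not a measured binding site.

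Library totals ranged between 658934 and 1419313 gene counts, and levels are given as TMM-normalized CPM, counts scaled to a common library size. They came from the 3′ part of transcripts, are not per length and are not compared between genes. The striatal label was borne out by the projection neuron markers Ppp1r1b, Penk, Drd1, Drd2 and Adora2a, which had counts in every library, Ppp1r1b from 438.6 to 2049 CPM. Some libraries held RNA of neighbouring tissue: the 5 cortical markers summed to 1070 CPM in 1 scrambled library, replicate 5, and the 5 choroid plexus markers to 3324 CPM in 1 YAC128 aCSF library, replicate 4. The share of counts in no feature averaged 23.8% in AON12.1, 22.1% in scrambled, 25.7% in YAC128 aCSF and 19.5% in WT aCSF libraries. Animal numbers start with 18 or 19. The 18 series held 2 AON12.1, 2 scrambled, 4 YAC128 aCSF and 3 WT aCSF libraries, and the 19 series held 6 AON12.1, 6 scrambled, 4 YAC128 aCSF and 5 WT aCSF libraries. The part of tissue makeup and of the no-feature share in the values below was not tested. Without those 2 libraries, 13, 11 and 13 of the 15 tested sterol enzymes lay below 0 for AON12.1 against scrambled, YAC128 aCSF and WT aCSF, and among libraries with a no-feature share of at most 25% (5 AON12.1, 7 scrambled, 3 YAC128 aCSF and 7 WT aCSF) 13, 11 and 11 of 16 did.

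In the test for any difference among the 4 groups, 0 of 30 members passed an adjusted p of 0.05, against 0.777% of all genes tested (quasi-likelihood test of edgeR, Benjamini-Hochberg adjustment over all genes). At an unadjusted p under 0.05 there were 5 members, Fads1, Pmvk, Acat2, Scap and Sqle, which is 5 of 30 beside a background of 14.9% of all genes. Fads1 had the smallest adjusted p of the 30, 0.153. DESeq2 gave Fads1 an adjusted p of 0.0283 in this test and called no other member. Over the 6 pairwise comparisons, 180 tests of members were made, the largest absolute log2 fold change was 0.54 and the lowest adjusted p was 0.0611. The SE of these values had a median of 0.14 and ran from 0.08 to 0.26. The 95% interval lay within 1.5-fold in either direction in 149 of the 180 tests and within 2-fold in all 180. The 6 comparisons share groups and are not independent of each other.

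**Figure D1:**
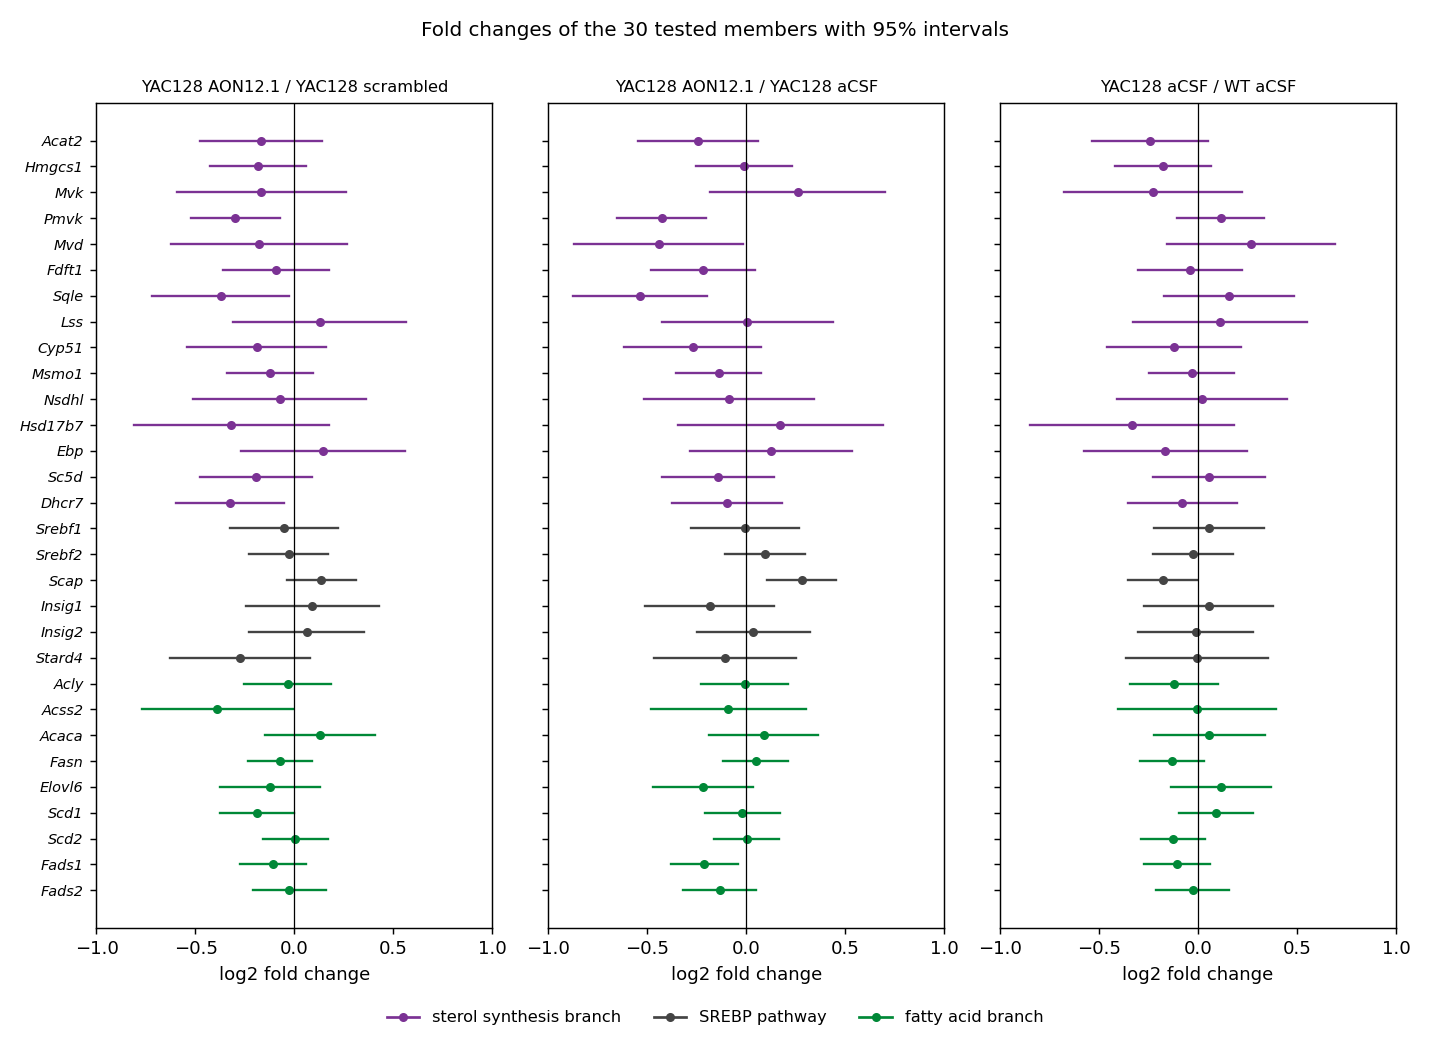
Log2 fold changes of the 30 tested members with their 95% intervals, for AON12.1 against scrambled, AON12.1 against YAC128 aCSF and YAC128 aCSF against WT aCSF, coloured by branch (8 libraries per group). Of the 15 sterol enzymes, 13, 11 and 9 sit left of 0 in the 3 panels, beside 48.2%, 50% and 50.7% of all genes. No member passed edgeR's test. DESeq2 called Pmvk in the panel of AON12.1 against YAC128 aCSF (adjusted p = 0.0468).

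AON12.1 against the scrambled oligonucleotide, the control for oligonucleotide chemistry, gave 0 called members of 30, against 0.14% of all genes. Of the 15 tested sterol enzymes, 13 had a log2 fold change below 0 (a lower level with AON12.1), with a median of -0.18, while 48.2% of all genes lay below 0 with a median of 0.01. At an unadjusted p under 0.05, 3 of the 15 sterol enzymes lay on the lower side (Pmvk, Dhcr7 and Sqle), beside 3.86% of all genes, and in either direction 5 of 30 members beside 7.25%. The 2 sterol enzymes above 0 were Ebp, the sterol isomerase, at 0.14 ± 0.20 and Lss, the lanosterol synthase, at 0.13 ± 0.22. Of the 9 fatty acid enzymes 7 lay below 0, with a median of -0.07, and 2 of them, Acss2 and Scd1, had an unadjusted p under 0.05. The 6 SREBP pathway genes divided evenly, 3 below 0, with a median of 0.02. Within the animals numbered from 18 (2 against 2 libraries) 9 of 16 tested sterol enzymes lay below 0 with a median of -0.07, and within those numbered from 19 (6 against 6) 13 of 16 with a median of -0.22. The fatty acid counts were 3 of 9 and 8 of 9 in the same order.

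Against YAC128 mice given aCSF, the control for any oligonucleotide, AON12.1 again gave 0 called members of 30 by edgeR, beside 0.309% of all genes, and 1 by DESeq2, Pmvk. There 11 of 15 sterol enzymes lay below 0, median -0.14, while 50% of all genes did. On the lower side at an unadjusted p under 0.05 were 3 sterol enzymes (Pmvk, Sqle and Mvd) and 1 fatty acid enzyme (Fads1). The share of all genes there was 5.03%, and Scap lay on the higher side. In either direction 5 of 30 members had such a p, beside 11.6% of all genes. The fatty acid branch had 6 of 9 below 0, median -0.02, and the SREBP pathway 3 of 6, median 0.01. In the 18 series 8 of 16 sterol enzymes lay below 0 with a median of -0.00, and in the 19 series 12 of 16 with a median of -0.24.

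AON12.1 against WT aCSF also gave 0 called members of 30 by edgeR, against 0.562% of all genes, and 1 by DESeq2, Fads1. Of the sterol enzymes 13 of 15 lay below 0, with a median of -0.17, against 48.4% of all genes. The sterol enzymes Acat2, Pmvk, Cyp51 and Sqle and the fatty acid enzyme Fads1 lay on the lower side at an unadjusted p under 0.05, 5 of 30 members beside 7.09% of all genes on the lower side and 14.5% in either direction. Of the fatty acid enzymes 7 of 9 lay below 0, median -0.10. By number series the sterol counts were 10 of 16 in the 18 series and 11 of 16 in the 19 series, with medians of -0.25 and -0.18. The fatty acid branch differed more between the series, with 2 of 9 below 0 and a median of 0.09 in the 18 series, and 8 of 9 and -0.20 in the 19 series. This comparison joins the transgene and the oligonucleotide, which cannot be told apart in it.

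The transgene itself, YAC128 aCSF against WT aCSF, gave 0 called members of 30, against 0.0749% of all genes. Sterol enzymes lay on both sides of 0, 9 of 15 below, with a median of -0.04, beside 50.7% of all genes. At an unadjusted p under 0.05 there was 1 member, Scap, on the lower side, beside 5.76% of all genes on the lower side and 12.5% in either direction. The fatty acid branch had 6 of 9 below 0 with a median of -0.03. In this comparison 27 of the 30 intervals lay within 1.5-fold either way, so larger differences than that were outside the interval for those 27 genes. Scrambled against YAC128 aCSF gave 0 called of 30, against 0.0843% of all genes, with no member at an unadjusted p under 0.05 beside 4.33% of all genes on the lower side and 9.83% in either direction. There 10 of 15 sterol enzymes lay below 0 at a median of -0.02, beside 50.4% of all genes. Scrambled against WT aCSF gave 0 called of 30 beside 0.169%, and 9 of 15 sterol enzymes below 0 at a median of -0.00, beside 48.5% of all genes. At an unadjusted p under 0.05 Fads1 and Acat2 lay on the lower side and Scd1 on the higher, 2 of 30 on the lower side beside 5.01% of all genes and 3 of 30 in either direction beside 9.8%. Since all members come from bulk tissue, fewer cells that make a transcript and less of it per cell cannot be told apart in any of these comparisons.

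The entry of the pathway holds Acat2, the thiolase that joins acetyl-CoA units, and Hmgcs1, the synthase that makes HMG-CoA. Acat2 (chromosome 17) had a lowest, median and highest level of 20.5, 34.1 and 49.4 CPM with AON12.1, 36.2, 37.8 and 50.5 CPM with scrambled, 26.3, 45.3 and 51.6 CPM in YAC128 aCSF and 34.2, 53.7 and 64.8 CPM in WT aCSF mice. The groups overlapped, and the group medians stood in the order AON12.1, scrambled, YAC128 aCSF and WT. The log2 fold change was -0.49 ± 0.15 for AON12.1 against WT (adjusted p = 0.121 by edgeR), -0.17 ± 0.15 against scrambled (adjusted p = 0.878) and -0.24 ± 0.15 for YAC128 aCSF against WT (adjusted p = 0.494). Hmgcs1 (chromosome 13) had 71.2, 89.4 and 123 CPM with AON12.1, 74.7, 99.6 and 130 CPM with scrambled, 70.1, 87.9 and 127 CPM in YAC128 aCSF and 76.2, 107 and 117 CPM in WT aCSF mice, again as lowest, median and highest. All 4 ranges overlapped almost wholly. Its log2 fold change was -0.18 ± 0.12 between AON12.1 and scrambled (adjusted p = 0.792), -0.01 ± 0.12 against aCSF (adjusted p = 0.989) and -0.18 ± 0.12 for YAC128 aCSF against WT (adjusted p = 0.552).

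The mevalonate kinases and decarboxylase come next. Pmvk (chromosome 3), which adds the second phosphate to mevalonate, was the member with the smallest p in both comparisons of AON12.1 with YAC128 controls. Its lowest, median and highest levels were 54.9, 64.6 and 87.4 CPM with AON12.1, 68.9, 81.2 and 102 CPM with scrambled, 72.3, 82 and 115 CPM in YAC128 aCSF and 71.1, 81.9 and 100 CPM in WT aCSF mice. The AON12.1 median lay below the lowest library of each other group, though its highest library, replicate 5, stood inside their ranges. The group means were 65.7 ± 10.1 CPM for AON12.1, 81.2 ± 11.02 for scrambled, 88.2 ± 16.3 for YAC128 aCSF and 82.1 ± 10.6 for WT aCSF (SD, n = 8 each). Against YAC128 aCSF the log2 fold change was -0.43 ± 0.11, a ratio of 0.743 with a 95% interval from 0.637 to 0.868 (adjusted p = 0.0782). Against scrambled it was -0.30 ± 0.11 (adjusted p = 0.502), and against WT -0.31 ± 0.11 (adjusted p = 0.193). DESeq2 put the comparison with aCSF below the threshold (adjusted p = 0.0468), as did the fit without AON12.1 replicate 5 (adjusted p = 0.0235) and that without YAC128 aCSF replicate 8 (adjusted p = 0.0369). Over the 44 alternative fits of that value, 3 called Pmvk, and adjusted p ranged up to 0.992 among the libraries with a no-feature share of at most 25%, where the value was -0.25. Within the 18 series the value was -0.56 and within the 19 series -0.30.

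Mvk, the first mevalonate kinase, had group medians of 20.6, 22.7, 14.1 and 19.8 CPM in AON12.1, scrambled, YAC128 aCSF and WT aCSF mice, and its log2 fold changes ran on both sides of 0. Mvd (chromosome 8), the decarboxylase that yields isopentenyl diphosphate, had 8.87, 13.6 and 19.8 CPM with AON12.1, 9.85, 16.1 and 22.5 CPM with scrambled, 9.95, 17.8 and 34.8 CPM in YAC128 aCSF and 8.45, 15.2 and 25.9 CPM in WT aCSF mice as lowest, median and highest. These ranges overlapped, with 1 YAC128 aCSF library, replicate 5, far above the others of its group. The Mvd value for AON12.1 against aCSF was -0.44 ± 0.21 (adjusted p = 0.415), and for YAC128 aCSF against WT it was 0.27 ± 0.21 (adjusted p = 0.629). The next enzymes, the isomerase Idi1 and the farnesyl diphosphate synthase Fdps, were too low to test: Idi1 had 17 counts over all 32 libraries and 0 in 18 of them, and Fdps had 85 counts and 0 in 5 libraries.

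At squalene, Fdft1 (squalene synthase) and Sqle (squalene epoxidase, an oxygen-requiring and rate-limiting step) were both tested. Fdft1 had means of 63.1, 68.0, 73.3 and 76.3 CPM in AON12.1, scrambled, YAC128 aCSF and WT aCSF mice, and its log2 fold change for AON12.1 against WT was -0.26 ± 0.13 (adjusted p = 0.369). Sqle (chromosome 15) had the largest absolute log2 fold change of any member test. Its lowest, median and highest levels were 14.6, 20.4 and 29.5 CPM with AON12.1, 22.4, 28.7 and 36 CPM with scrambled, 25.8, 28.8 and 42.3 CPM in YAC128 aCSF and 16.2, 30.9 and 38.3 CPM in WT aCSF mice. The AON12.1 median stood below every scrambled and YAC128 aCSF library, while the WT range spanned most of the AON12.1 range. Against YAC128 aCSF the value was -0.54 ± 0.17, a ratio of 0.690 with a 95% interval from 0.546 to 0.871 (adjusted p = 0.154). It was -0.37 ± 0.17 against scrambled (adjusted p = 0.646) and -0.38 ± 0.17 against WT (adjusted p = 0.307). No alternative fit called Sqle.

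**Figure D2:**
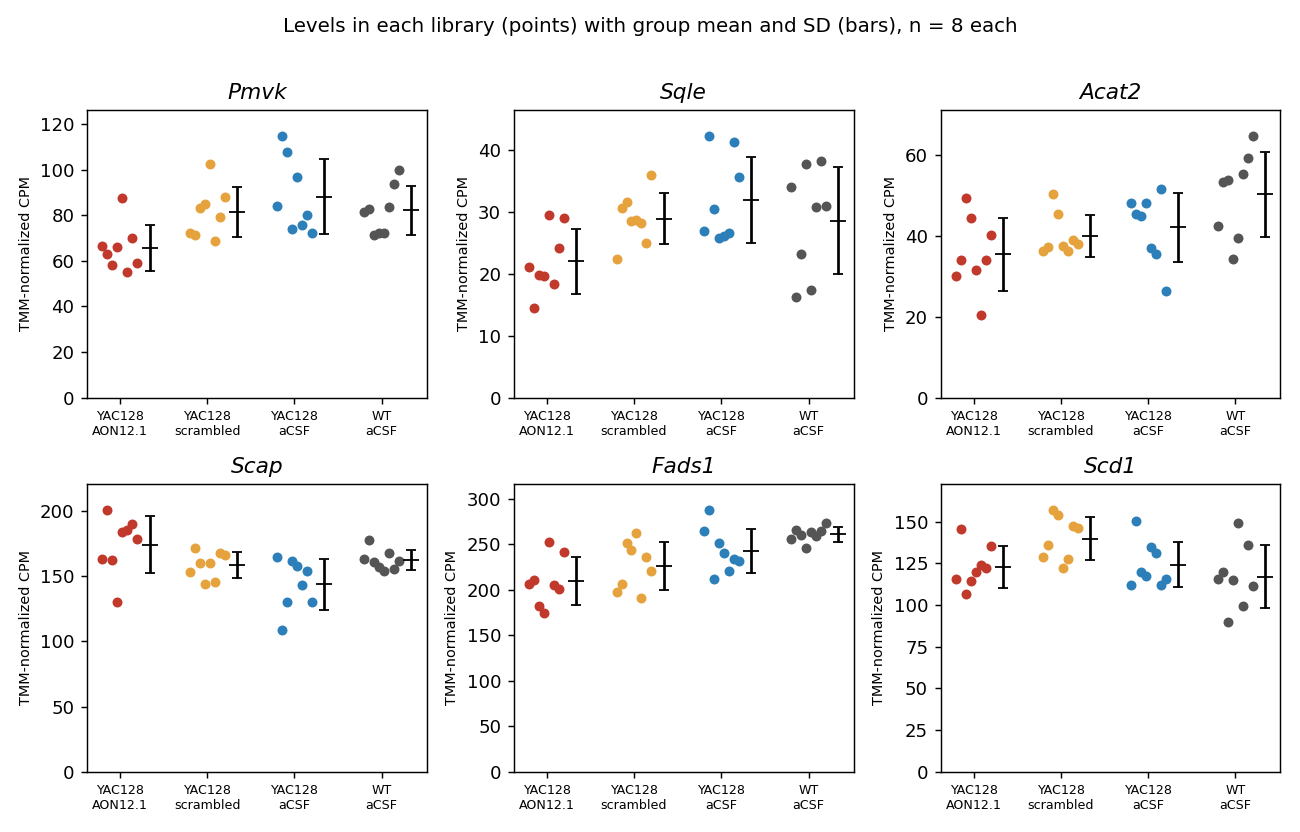
TMM-normalized CPM of lead members in each library, by group in the order AON12.1, scrambled, YAC128 aCSF and WT aCSF, with the group mean and SD (8 libraries each). The groups overlap for every gene drawn; the Pmvk means are 65.7 CPM with AON12.1 and 81.2, 88.2 and 82.1 CPM in the other groups.

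After ring closure by Lss, the sterol nucleus is trimmed by Cyp51, the lanosterol demethylase, by the sterol reductases Tm7sf2 and Lbr, by the methyl oxidase Msmo1 with Nsdhl and Hsd17b7, and by Ebp, Sc5d and Dhcr7. Cyp51 means were 26.8 ± 8.77, 30.8 ± 7.50, 32.6 ± 3.29 and 36.2 ± 8.90 CPM in AON12.1, scrambled, YAC128 aCSF and WT aCSF mice (SD, n = 8 each), with a value of -0.39 ± 0.17 for AON12.1 against WT (adjusted p = 0.290). Dhcr7 (chromosome 7), a reductase of the last step to cholesterol, had 20.5, 31.6 and 38.9 CPM with AON12.1, 27.8, 37.5 and 47.3 CPM with scrambled, 28.3, 31.2 and 38.9 CPM in YAC128 aCSF and 28.2, 33.2 and 43.8 CPM in WT aCSF mice as lowest, median and highest. The scrambled group was the highest of the 4 and all ranges overlapped. Dhcr7 had a log2 fold change of -0.33 ± 0.14 between AON12.1 and scrambled (adjusted p = 0.597) and -0.10 ± 0.14 against aCSF (adjusted p = 0.850). Msmo1 means lay between 65.8 and 74.4 CPM over the 4 groups, Sc5d between 47.6 and 53.8, Ebp between 19.4 and 21.9, Lss between 15.8 and 17.6, Nsdhl between 12.7 and 13.8 and Hsd17b7 between 7.51 and 10.7. Each of these means differed between groups by less than the largest SD of that gene. The largest value among them was that of Hsd17b7 for scrambled against aCSF, 0.49 ± 0.24 (adjusted p = 0.515). Tm7sf2 with 169 counts and Lbr with 235 counts over 32 libraries were not tested.

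Values of the SREBP pathway genes lay on both sides of 0. Scap (chromosome 9), the escort of the SREBP proteins, had 130, 181 and 201 CPM with AON12.1, 144, 160 and 172 CPM with scrambled, 109, 149 and 165 CPM in YAC128 aCSF and 154, 161 and 178 CPM in WT aCSF mice as lowest, median and highest. The AON12.1 median lay above all YAC128 aCSF, scrambled and WT libraries, but its lowest library fell inside or below their ranges. Against YAC128 aCSF the Scap value was 0.28 ± 0.09 (adjusted p = 0.143), against scrambled 0.14 ± 0.09 (adjusted p = 0.785), and for YAC128 aCSF against WT it was -0.18 ± 0.09 (adjusted p = 0.392). Srebf2, which encodes SREBP2, the main regulator of sterol enzymes, had means of 213 ± 39.7, 217 ± 20.6, 199 ± 20.7 and 203 ± 26.1 CPM in AON12.1, scrambled, YAC128 aCSF and WT aCSF mice (SD, n = 8 each). Srebf1, which encodes SREBP1, the main regulator of fatty acid enzymes, had 49.5, 62.4 and 69.3 CPM with AON12.1, 40, 58.8 and 89.9 CPM with scrambled, 46.9, 58.3 and 72.2 CPM in YAC128 aCSF and 39.4, 58.1 and 75.6 CPM in WT aCSF mice. These ranges overlapped widely, and the Srebf1 value was -0.05 ± 0.13 between AON12.1 and scrambled (adjusted p = 0.964) and 0.05 ± 0.14 for YAC128 aCSF against WT (adjusted p = 0.921).

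Insig1, a retention protein whose own transcript is an SREBP target, had 42.1, 56.4 and 79.3 CPM with AON12.1, 28.6, 56 and 74 CPM with scrambled, 44, 67 and 98.5 CPM in YAC128 aCSF and 39.4, 66.7 and 75.3 CPM in WT aCSF mice. The groups overlapped, with values of 0.09 ± 0.17 between AON12.1 and scrambled (adjusted p = 0.952) and -0.19 ± 0.16 against aCSF (adjusted p = 0.701). Insig2, the other retention protein, lay between 45.9 and 48.3 CPM in the group means. Stard4, a sterol carrier of the cytosol, had 11.3, 18.9 and 30.5 CPM with AON12.1, 14.9, 24.9 and 31.2 CPM with scrambled, 12.9, 22.3 and 29.3 CPM in YAC128 aCSF and 17.7, 21 and 29.1 CPM in WT aCSF mice. Its value for AON12.1 against scrambled was -0.27 ± 0.18 (adjusted p = 0.791), within the overlap of the groups.

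Fatty acid synthesis begins with acetyl-CoA from citrate by Acly or from acetate by Acss2, goes on with the carboxylase Acaca and the synthase Fasn, and ends with the elongase Elovl6 and the desaturases Scd1, Scd2, Fads1 and Fads2. Acss2 (chromosome 2) had 12.2, 16.1 and 19.4 CPM with AON12.1, 10.5, 22.4 and 27.5 CPM with scrambled, 7.79, 17.5 and 22.8 CPM in YAC128 aCSF and 13.5, 15.7 and 24.3 CPM in WT aCSF mice as lowest, median and highest. The AON12.1 range was contained in the scrambled range, and the value between them was -0.39 ± 0.19 (adjusted p = 0.683). Fasn means were 258 ± 21.5, 271 ± 30.0, 250 ± 19.7 and 274 ± 28.3 CPM in AON12.1, scrambled, YAC128 aCSF and WT aCSF mice (SD, n = 8 each), with lowest, median and highest levels of 232, 255 and 301, of 207, 272 and 307, of 218, 258 and 271, and of 230, 280 and 311 CPM. Its value was -0.07 ± 0.08 between AON12.1 and scrambled (adjusted p = 0.910) and -0.13 ± 0.08 for YAC128 aCSF against WT (adjusted p = 0.498). Acly means lay between 110 and 120 CPM, Acaca between 44.1 and 49.1 and Elovl6 between 93.7 and 109, with no adjusted p under 0.5 for these genes in any comparison of AON12.1.

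Fads1 (chromosome 19), a desaturase of polyunsaturated fatty acids, had the lowest adjusted p of all member tests. Its lowest, median and highest levels were 174, 206 and 253 CPM with AON12.1, 191, 228 and 262 CPM with scrambled, 211, 237 and 287 CPM in YAC128 aCSF and 246, 262 and 273 CPM in WT aCSF mice. The WT libraries were closely spaced at the upper end, most AON12.1 libraries lay below them, and the highest AON12.1 library overlapped the lowest WT one. The means were 209 ± 26.7 CPM with AON12.1 and 261 ± 8.09 CPM in WT aCSF mice (SD, n = 8 each). The log2 fold change was -0.32 ± 0.08, a ratio of 0.803 with a 95% interval from 0.715 to 0.903 (adjusted p = 0.0611). The other values were -0.21 ± 0.08 for AON12.1 against aCSF (adjusted p = 0.292), -0.21 ± 0.08 for scrambled against WT (adjusted p = 0.395), -0.11 ± 0.08 between AON12.1 and scrambled (adjusted p = 0.840) and -0.10 ± 0.08 for YAC128 aCSF against WT (adjusted p = 0.632). For AON12.1 against WT, DESeq2 called Fads1 (adjusted p = 0.0144), and so did the fits without AON12.1 replicate 5 (adjusted p = 0.0267) and without AON12.1 replicate 8 (adjusted p = 0.0442), 3 of 44 alternatives. The value was -0.31 within each number series, 2 against 3 and 6 against 5 libraries. Its neighbour Fads2 had means of 126 ± 14.3, 129 ± 10.5, 139 ± 18.9 and 141 ± 17.2 CPM in AON12.1, scrambled, YAC128 aCSF and WT aCSF mice (SD, n = 8 each).

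Scd1 and Scd2, stearoyl-CoA desaturases that make monounsaturated fatty acids, are close paralogs. Reads that fit both may have been left out as not unique in the authors' counting, so the levels of both genes are uncertain. Scd1 had 106, 121 and 146 CPM with AON12.1, 122, 141 and 157 CPM with scrambled, 112, 119 and 151 CPM in YAC128 aCSF and 89.5, 115 and 149 CPM in WT aCSF mice. The scrambled group was the highest, with all ranges overlapping, and the value was 0.26 ± 0.09 for scrambled against WT (adjusted p = 0.348), with -0.19 ± 0.09 between AON12.1 and scrambled (adjusted p = 0.684). Scd2 had 551, 697 and 900 CPM with AON12.1, 670, 714 and 763 CPM with scrambled, 662, 700 and 793 CPM in YAC128 aCSF and 617, 760 and 959 CPM in WT aCSF mice. The AON12.1 and WT groups had the wider spread, and the Scd2 value was 0.00 ± 0.08 between AON12.1 and scrambled (adjusted p = 0.998) and -0.13 ± 0.08 for YAC128 aCSF against WT (adjusted p = 0.527).

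Summed over the 15 tested sterol enzymes, the level was 543 ± 38.9 CPM with AON12.1, 616 ± 46.9 CPM with scrambled, 611 ± 52.4 CPM in YAC128 aCSF and 634 ± 37.9 CPM in WT aCSF mice (SD, n = 8 each). The lowest and highest libraries were 499.7 and 606 CPM with AON12.1, 582 and 711 with scrambled, 526 and 699.8 in YAC128 aCSF and 581 and 694 in WT aCSF mice, so the groups overlapped. With each enzyme weighted equally, as the mean log2 level relative to the mean over 32 libraries, the sterol branch stood at -0.13 ± 0.09 with AON12.1, 0.04 ± 0.10 with scrambled, 0.02 ± 0.11 in YAC128 aCSF and 0.07 ± 0.08 in WT aCSF mice. On the same scale the fatty acid branch stood at -0.05 ± 0.10, 0.03 ± 0.10, -0.01 ± 0.10 and 0.03 ± 0.12 in that order of groups, and the SREBP pathway at 0.00 ± 0.13, 0.01 ± 0.15, -0.02 ± 0.13 and 0.01 ± 0.13. These sums and means describe the list and carry no test.

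**Figure D3:**
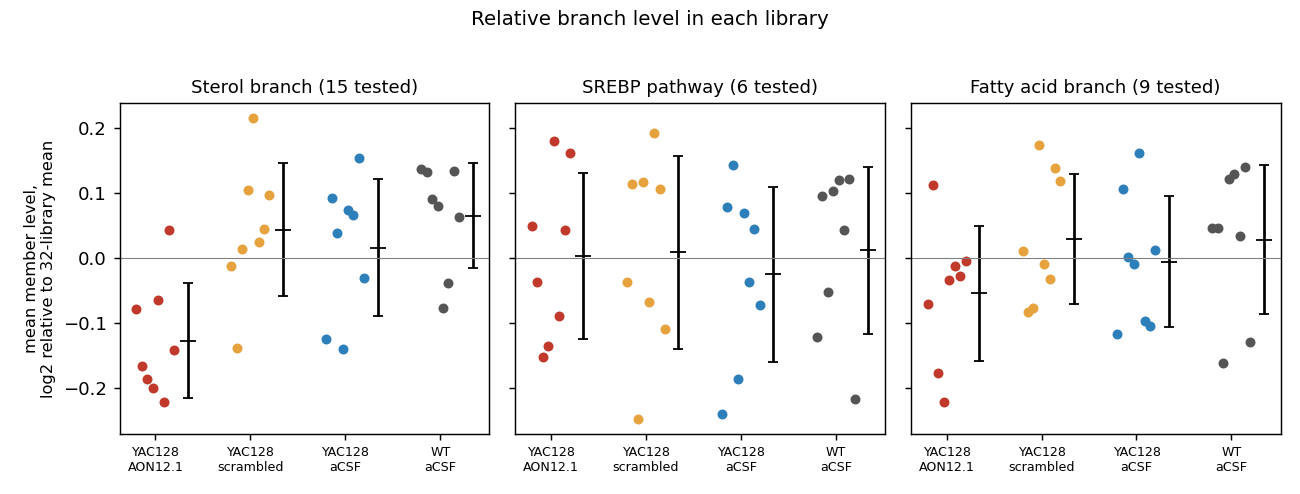
Mean log2 level of each branch relative to its mean over 32 libraries, per library, by group in the order AON12.1, scrambled, YAC128 aCSF and WT aCSF, with group mean and SD (8 libraries each). The sterol branch averages -0.13 with AON12.1 and between 0.02 and 0.07 in the other groups, and the ranges overlap.

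Within groups, pairs of sterol enzymes showed no common direction from mouse to mouse. After each group's mean was taken off, the median Pearson r over the 105 pairs of sterol enzymes was 0.00, from -0.56 to 0.47, across 32 libraries. Among the 36 pairs of fatty acid enzymes it was 0.19, and over all 435 pairs 0.05. The pairs share libraries and depth, the genes with few counts carry much counting noise, and these values are a description only. The relative levels of the sterol and fatty acid branches had r = 0.19 (Spearman 0.29) over the same deviations.

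**Figure D4:**
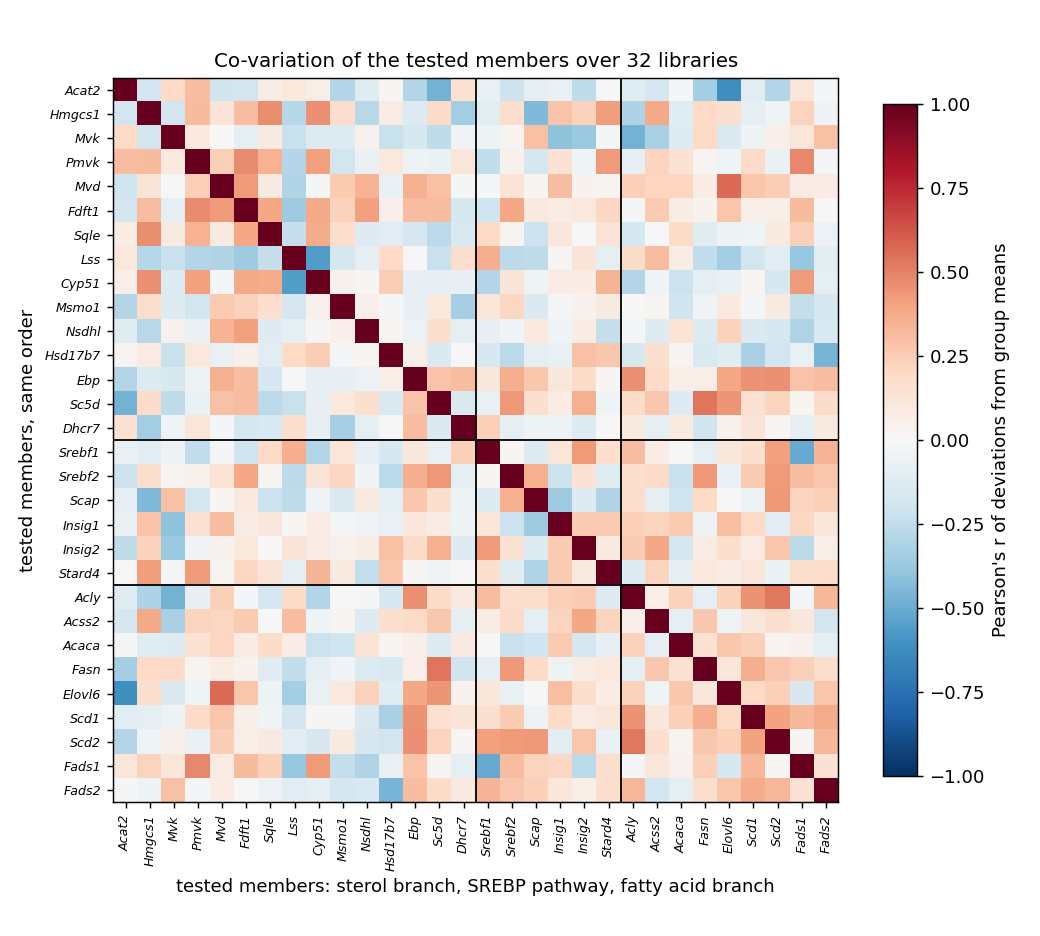
Pearson r between members over 32 libraries after subtraction of group means, ordered by branch. Values for pairs of sterol enzymes spread on both sides of 0 with a median of 0.00, and those for pairs of fatty acid enzymes have a median of 0.19.

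Marker sums of the cell types that the tissue holds are given beside these values, and their part in the values was not tested. The 13 oligodendrocyte and myelin markers summed to 6631 to 11735 CPM with AON12.1, 6579 to 7941 CPM with scrambled, 5389 to 7420 CPM in YAC128 aCSF and 6845 to 9254 CPM in WT aCSF mice. The medians were 6754, 7276, 7089 and 8009 CPM in that order of groups, lowest with AON12.1, where replicate 2 alone gave the highest sum. The 9 astrocyte markers summed to 2964 ± 203, 2930 ± 155, 2636 ± 172 and 3212 ± 221 CPM in AON12.1, scrambled, YAC128 aCSF and WT aCSF mice, and the 10 projection neuron markers to 7025 ± 1392, 5392 ± 1229, 4902 ± 1096 and 7291 ± 1779 CPM (SD, n = 8 each). The astrocyte and projection neuron means were lowest in YAC128 aCSF mice. So were the mean oligodendrocyte sum, 6912 CPM beside 7389 CPM with AON12.1, and the microglia and endothelial means that follow. The 8 microglia markers summed to 741 ± 112, 763 ± 66.3, 594 ± 68.7 and 663 ± 73.0 CPM and the 6 endothelial markers to 288 ± 22.1, 269 ± 11.6, 247 ± 27.5 and 261 ± 24.4 CPM in the same order of groups. Those of newly formed oligodendrocytes and precursors, 10 genes, summed to 326 ± 57.3, 328 ± 29.97, 347 ± 46.9 and 348 ± 69.9 CPM. Over deviations from group means in 32 libraries, the sterol branch level had r = -0.14 with the oligodendrocyte sum, -0.09 with the astrocyte sum, -0.37 with the projection neuron sum and -0.19 with the no-feature share. For the fatty acid branch these were 0.28, 0.09, -0.39 and -0.30. The same r was taken without the 2 libraries farthest from the median of the marker sum or no-feature share. For the sterol branch it was then -0.07, -0.19, -0.23 and -0.24 in that order, and for the fatty acid branch 0.18, 0.10, -0.41 and -0.25. Over all 32 libraries the Spearman value of the fatty acid branch was 0.07 with the oligodendrocyte sum and -0.43 with the projection neuron sum.

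Genes around the pathway, in lists that are separate from the 34, gave few calls. Among 14 tested genes of SREBP processing and turnover, none was called in any pairwise comparison, and 7 lay below 0 for AON12.1 against scrambled. The smallest p in that list over the 4 groups were those of Nfya and Nfyb, subunits of the CCAAT-binding factor NF-Y, with values of -0.69 ± 0.30 (adjusted p = 0.621) and -0.12 ± 0.17 (adjusted p = 0.939) for AON12.1 against scrambled. Of 18 tested genes of cholesterol transport, esterification and turnover, 1 was called: Apod, a secreted lipid-binding lipocalin of glia. For AON12.1 its value was 0.69 ± 0.11 against WT (edgeR adjusted p = 0.000539) and 0.55 ± 0.11 against aCSF (adjusted p = 0.00825). Of all genes, 0.562% and 0.309% were called in these comparisons. Against scrambled, the other oligonucleotide, the Apod value was 0.28 ± 0.11 and was not called (adjusted p = 0.525). Lrp8, a lipoprotein receptor of neurons, was next at 0.64 ± 0.20 for YAC128 aCSF against WT (adjusted p = 0.179). Of 19 tested genes of other fatty acid synthesis, elongation and activation, none was called. Elovl7, an elongase, had 0.80 ± 0.24 (adjusted p = 0.114) and Tecr, a reductase of chain elongation, -0.24 ± 0.08 (adjusted p = 0.151) for AON12.1 against WT. Of 13 tested genes of myelin lipid synthesis, none was called. Gpd1, a glycerol phosphate dehydrogenase, had 0.59 ± 0.18 for AON12.1 against aCSF (adjusted p = 0.138), and Ugt8a, which makes galactosylceramide, had -0.63 ± 0.19 for scrambled against WT (adjusted p = 0.192).

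Several members overlap other genes in the GRCm38 annotation: Fdft1 with Ctsb, Cyp51 with Akap9, Srebf1 with Rai1, Acss2 with Ggt7 and Gss, and Hmgcs1, Lss, Elovl6, Mvd and Acaca with antisense or predicted genes, all on the opposite strand. Lbr overlaps Dnah14 on the opposite strand, and Fdps overlaps Gm43738 and Tm7sf2 overlaps Vps51 on the same strand, where reads that fit both may not have been assigned to either. The sources used here do not say whether strand was used in counting, so reads of such partners may be included in these levels.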

How the data were processed

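Libraries were made from 100 ng RNA per mouse with oligo-dT primers that hold a sample barcode and a molecular identifier (mcSCRB-seq with changes, per the labels' protocols), which read the 3′ part of transcripts. The authors deposited raw gene counts, whole numbers without normalization, in a separate file for each library. The submitters' processing notes name FastQC, cutadapt 2.10, STAR 2.7.5a, HTSeq 0.12.4 and GRCm39; the sources used here do not give the use of the molecular identifiers or of strand. Summary lines (no feature, ambiguous, not unique) averaged 33.2% of each file's sum and stayed out of library sizes and tests. Total gene counts ran from 658934 to 1419313, mean 958910.

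The analysis used R 4.3.3 and edgeR 4.0.16: filterByExpr (minimum count 10, minimum total 15) left 10679 genes, and 1 TMM-scaled quasi-likelihood fit over all 32 libraries had 1 coefficient per group, with Benjamini-Hochberg adjustment over all genes and calls at an adjusted p under 0.05. The common biological coefficient of variation was 0.167. Log2 fold changes are given ± SE, and intervals are at 95% and rest on the spread between separately numbered mice. The same steps were also run on simulated counts with known fold changes, and the outcome is not given here. Ensembl identifiers were given names through a GRCm38 annotation; coordinates are given for RefSeq promoter windows only. Alternatives were DESeq2 1.42.0, limma-voom (limma 3.58.1), DESeq2 size factors, no filter, a stricter filter of 20 counts in 8 libraries, the number series or the no-feature share as covariate, each number series alone, only the groups compared, and each library left out. Members, lists and the naming rule were chosen with earlier results of these data known. The rule named, in each branch, the 3 members with the smallest p for AON12.1 against scrambled, the 3 for YAC128 aCSF against WT and the 2 over the 4 groups, and in each other list the called genes and the 2 with the smallest p over the 4 groups; other members are given for completeness.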

Additional observations from a re-analysis of the deposited data

Results flagged for a closer look

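In groups of 8 libraries, a library counts as standing apart when its gap to the nearest other library is a larger part of the group's range than Dixon's 95% critical value for 8 values. Among 132 groups of 8 looked at, 8 had such a library, and chance gives about 1 in 20. On the high side were Pmvk in AON12.1 replicate 5 (87.4 CPM, next 70.0), Mvk in YAC128 aCSF replicate 1 (36.9 CPM, next 21.4), Mvd in YAC128 aCSF replicate 5 (34.8 CPM, next 20.6) and Cyp51 in WT aCSF replicate 8 (54.9 CPM, next 38.3). On the low side were Sc5d in scrambled replicate 3 (33.7 CPM, next 51.4), Fasn in scrambled replicate 3 (207 CPM, next 263), Hmgcs1 in WT aCSF replicate 2 (76.2 CPM, next 101.8) and Insig1 in WT aCSF replicate 8 (39.4 CPM, next 60.0).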

How the results depend on the processing

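Of 7897 values of single members under alternatives, 7726 kept their direction or moved by less than the spread between replicates and kept their side of the threshold, 165 moved further and 6 passed the threshold; 450 changed sign, and 0 of those were called in either fit. The number of members called, 0 throughout with edgeR on all libraries, became 1 with DESeq2 for AON12.1 against aCSF (Pmvk), for AON12.1 against WT (Fads1) and over the 4 groups (Fads1). Leaving out each library in turn gave 0 to 1 called members for AON12.1 against aCSF and against WT and 0 to 0 elsewhere, and 12 to 14, 11 to 12 and 12 to 14 sterol enzymes below 0 for AON12.1 against scrambled, aCSF and WT. The cause was not tested.

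Counts over all genes, the background here, moved more. For AON12.1 against scrambled, 15 became 8 with no-feature shares up to 25%, 1 and 5 in the 18 and 19 series and 7 with only those groups, and 10 to 17 with a library left out. For AON12.1 against aCSF, 33 became 91 with DESeq2, 57 without a filter, 6 with shares up to 25% and 276 and 2 by series; leaving out a library gave 26 to 73, the highest without YAC128 aCSF replicate 8, and 61 without AON12.1 replicate 7. For scrambled against aCSF, 9 became 34 with DESeq2, 14 without a filter, 4 with the stricter filter, 5 with the series as covariate or only those groups, 1 with shares up to 25% and 1 in each series, and 3 to 13 with a library left out. For YAC128 aCSF against WT, 8 became 65 with DESeq2, 21 without a filter, 3 with the stricter filter, 4 with the share as covariate, 1 with shares up to 25% and 2 in each series; leaving out a library gave 3 to 142, the highest without WT replicate 1, and 27 without YAC128 aCSF replicate 8. For AON12.1 against WT, 60 became 109 with DESeq2, 33 with shares up to 25% and 3 and 26 by series, and 49 to 97 with a library left out, the highest without AON12.1 replicate 5. For scrambled against WT, 18 became 38 with DESeq2, 33 without a filter, 28 with the share as covariate and 3 and 4 by series, and 10 to 27 with a library left out. The fit with shares up to 25% was chosen after seeing the data, as was the one without the libraries highest in cortical and choroid plexus markers.

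No paired analysis was possible because each library comes from its own numbered animal and the replicate numbers used here were given in accession order and pair nothing. Of the 34 genes, 4 had too few counts to test; Fdps and Tm7sf2 among them overlap a gene on the same strand, and the part of that overlap was not tested.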

Other observations

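Outside the lipid genes, some cell type markers passed the test in the same libraries. Enpp6, a choline phosphodiesterase of newly formed oligodendrocytes, was higher than in WT mice in AON12.1 (1.15 ± 0.19 on the log2 scale, edgeR adjusted p = 0.000886), scrambled (1.35 ± 0.19, adjusted p = 3.97e-05) and YAC128 aCSF mice (1.08 ± 0.19, adjusted p = 0.00632). In the same list Tcf7l2 averaged 21.3, 21.8, 30.0 and 37.2 CPM and Bcas1 165, 157, 184 and 199 CPM in AON12.1, scrambled, YAC128 aCSF and WT aCSF mice, and 3 of the list's 7 tested genes lay below 0 in each comparison with WT. Mobp, a myelin protein gene, was lower with AON12.1 than in WT mice (-0.61 ± 0.12, adjusted p = 0.00783), and Trf, the iron carrier that oligodendrocytes express, was higher with AON12.1 than with scrambled (0.55 ± 0.12, adjusted p = 0.0309). Gfap, an astrocyte filament gene, was higher with AON12.1 than with aCSF (0.77 ± 0.18, edgeR adjusted p = 0.0410). The other astrocyte markers went both ways. Slc1a3, Gja1, Gjb6, Aldh1l1 and Fgfr3 had lower means with AON12.1 than in YAC128 aCSF mice, and Slc1a2, Aqp4 and Aldoc had higher ones. C1qa and C1qb, complement genes of microglia, were higher with scrambled than with aCSF (0.62 ± 0.12 and 0.58 ± 0.11, adjusted p = 0.0190 and 0.0182), and C1qa was higher with scrambled than in WT mice (0.56 ± 0.12, adjusted p = 0.0324). Of the 8 microglia markers 6 lay above 0 for scrambled against aCSF, while Cx3cr1 averaged 22.4 against 24.2 CPM and P2ry12 19.8 against 21.3 CPM. Penk and Adora2a, genes of indirect-pathway projection neurons, were lower in YAC128 aCSF than in WT mice (-0.76 ± 0.16 and -0.83 ± 0.18, adjusted p = 0.0495 each), where 9 of the 10 projection neuron markers lay below 0. Ttr, a choroid plexus gene, was called over the 4 groups (adjusted p = 0.00305), with means of 43.4, 25.4, 438 and 27.7 CPM in AON12.1, scrambled, YAC128 aCSF and WT aCSF mice; replicate 4 of YAC128 aCSF held most of the choroid plexus marker counts of its group. These comparisons share libraries with those of the lipid genes.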
